A study of Mus musculus with 21 samples.

Results

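Testes of CD-1 mice at gestation day 14 (gd14) were compared with testes at gestation day 12 (gd12) in 6 microarrays of a series of 21. Each of the 3 gd14 arrays (arrays 10, 11 and 12) held RNA of one wild-type male fetus, per the sample labels, and each of the 3 gd12 arrays (pools 13, 14 and 15) held RNA of a pool of 5. The gonads of both stages were excised whole from an outbred stock, the labels give wild-type for every animal, and they name no treatment. The design text of the series describes every sample as the testis pair of one animal from its own dam, which cannot hold for pooled gd12 gonads, and the sample labels were followed. The spread at gd12 is therefore one between pools and that at gd14 one between animals. All 18193 genes with a probe set assigned to a single gene were members of the comparison, and 14338 of them passed a filter on dim signals and were tested.

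Between these stages the mouse testis has just formed its cords. In the cords, Sertoli cells enclose the germ cells, which leave the pluripotent state, stop dividing and begin a male program that includes the piRNA pathway, a small RNA system that silences transposable elements, and later the remethylation of their DNA. Outside the cords, fetal Leydig cells appear and make androgens from cholesterol, while the mesonephros, the embryonic kidney tissue beside the gonad, is left behind or forms the male duct.

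Levels are intensities in the arbitrary units of the arrays, given in the order of arrays 10, 11 and 12 for gd14 and of pools 13, 14 and 15 for gd12. A difference is that of log2(intensity + 22.4), gd14 minus gd12, with the standard error (SE) of a limma fit over all 20 testis arrays, so the change of a dim gene is understated. A gene was called at a Benjamini-Hochberg adjusted p below 0.05 over all genes tested. A value below 71.6 is termed near background (40% of the values on the testis arrays lie below it), and where every array of a stage lay there the fold is given as a lower bound with that level as the floor. Levels of different genes are not compared, because each probe set has its own response. In whole tissue, fewer cells of a type and less RNA per cell cannot be told apart.

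The arrays of a stage resembled each other more than those of the other stage. Pearson correlations of log2 values over all probe sets but controls were 0.971 to 0.974 within gd14, 0.965 to 0.968 within gd12 and 0.945 to 0.959 between the stages. RNA integrity was read from the 3' to 5' ratio of control transcripts, which was 1.29 to 1.40 for Actb at both stages. For Gapdh it was 0.68 to 0.72 at gd14 and 0.75 to 0.78 at gd12. The median SD of a gene was 0.159 between gd14 arrays and 0.216 between gd12 pools on the log2 scale.

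The gd12 pools stood apart from each other in ways that touch many results. Pool 14, labelled male like the rest, gave 2616 for Xist, the RNA that coats the inactive X chromosome of female cells, while the other 5 arrays gave 40.5 to 91.6. It was also the highest of all 6 arrays in Fst (857, next 130), Irx3 (1366, next 385) and Rspo1 (886, next 643), genes of the developing ovary. Its level of Amh, which encodes the Sertoli hormone that removes the female duct, was the lowest, at 445. Of the 18 ovary and pre-granulosa genes tested, 14 were highest among the gd12 pools in pool 14. The summed level of that list was 4926, 5462 and 5686 in gd14 testes, against 6960, 9460 and 5833 in the gd12 pools. Pool 14 was also the highest gd12 pool for 20 of 27 pluripotency genes and 12 of 14 erythroid genes. The share of all genes highest or lowest in a given pool was not counted, here or below. Y-linked RNA was present in pool 14 as well, with Eif2s3y at 1107 and Kdm5d at 406. The Xist level of pool 14 goes against its label.

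Pool 13 was high in genes of tissue next to the gonad, among other genes, and low in germ cell signals. Chgb and Dbh, which encode a granule protein and the noradrenaline-forming enzyme of chromaffin cells, read 2404 and 750 there, against at most 239 and 108 on the other 5 arrays. Cdh16, a kidney cadherin, read 1369 (next 363). Of the 17 adrenal cortex and chromaffin genes tested, 15 were highest among the gd12 pools in pool 13, and their sum was 2864, 2502 and 3003 in gd14 testes, against 9436, 3135 and 2625 in the gd12 pools. This rank was not particular to the adrenal list. Pool 13 was also the highest gd12 pool for 23 of 26 macrophage and leukocyte genes, 25 of 33 matrix genes and 20 of 29 Hox genes. Germ cell genes ran the other way. Pool 13 was the lowest gd12 pool for 21 of 26 piRNA genes, 21 of 22 meiosis genes and 23 of 27 pluripotency genes. Dazl, an RNA-binding protein gene of germ cells, read 9386, 7587 and 7521 in gd14 testes, against 2775, 7938 and 7399 in the gd12 pools, so pool 13 lay apart from the other 5 arrays. Pool 15 was the highest gd12 pool for 23 of 32 Sertoli genes and the lowest for 21 of 29 Hox genes. Results that rest on these pools are given below with and without them. With pools 13 and 14 both left out, gd12 rests on pool 15, whose spread is then taken from the other groups.

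**Figure D1:**
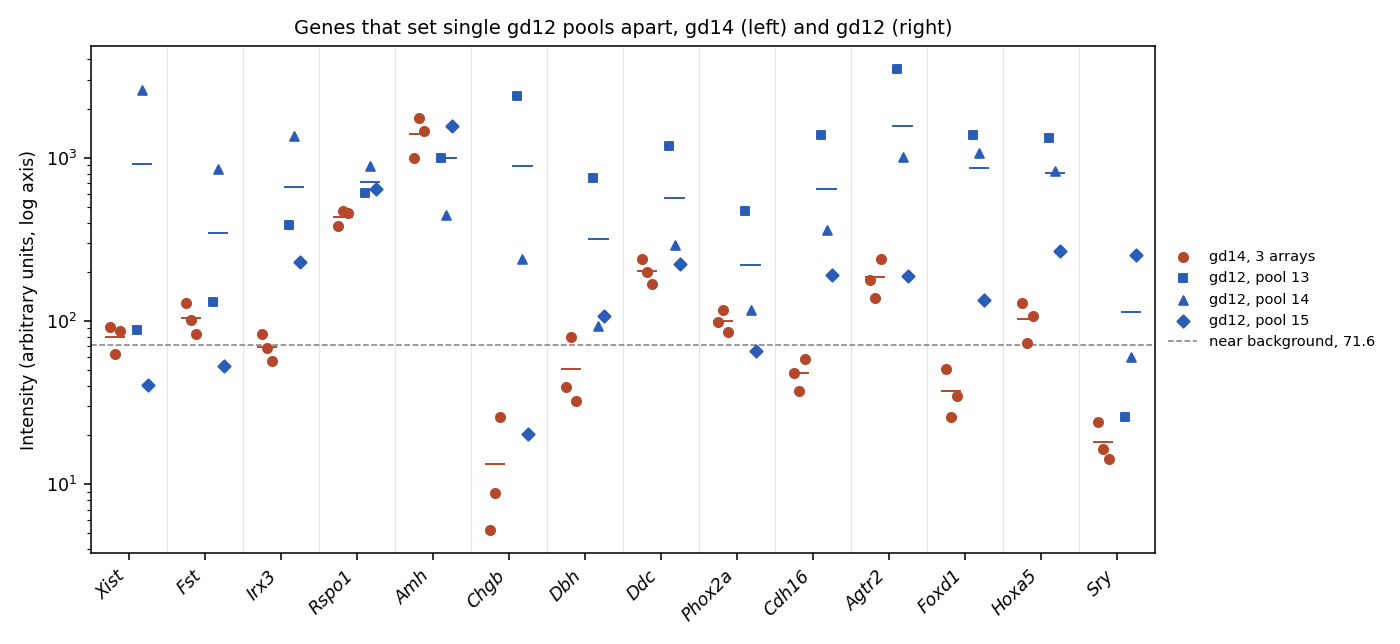
Intensity (arbitrary units, log axis) of 14 genes on the 3 gd14 arrays (red circles, left of each pair) and the 3 gd12 pools (blue, right, one symbol per pool), with bars at the stage means and a dashed line at 71.6. Pool 14 stands alone in Xist at 2616, and pool 13 stands alone in Chgb at 2404.

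Of the 14338 genes tested, 2681 (18.7%) were called. At gd14, 1629 (11.4%) were higher and 1052 (7.34%) lower, and the median difference of all genes was 0.03. At an unadjusted p below 0.05 there were 4509. A difference of at least 2-fold on the log2 scale was reached by 586 called genes that rose (4.09%) and 212 that fell (1.48%), and one of at least 4-fold by 146 and 33. Of the genes that rose, 182 were near background in all gd12 pools. Of those that fell, 60 were near background on all gd14 arrays. The arrays of the stages did not overlap for 5380 genes (37.5%), and for 2612 of the 2681 called.

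The pools changed how many genes were called more than which way the balance lay. Without pool 13, 1300 genes rose (9.07%) and 789 fell (5.5%). Without pool 14, 1349 rose (9.41%) and 786 fell (5.48%). With pool 15 as the only gd12 sample, 630 rose (4.39%) and 313 fell (2.18%). With each of the 6 arrays left out in turn, 868 of the 1629 rises and 430 of the 1052 falls were called every time, which is 48.4% of the calls. Counts of calls kept with any array left out, given for lists below, are to be read against that share. The count of members called in any list is to be read against the 11.4% of all genes that rose and the 7.34% that fell.

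**Figure D2:**
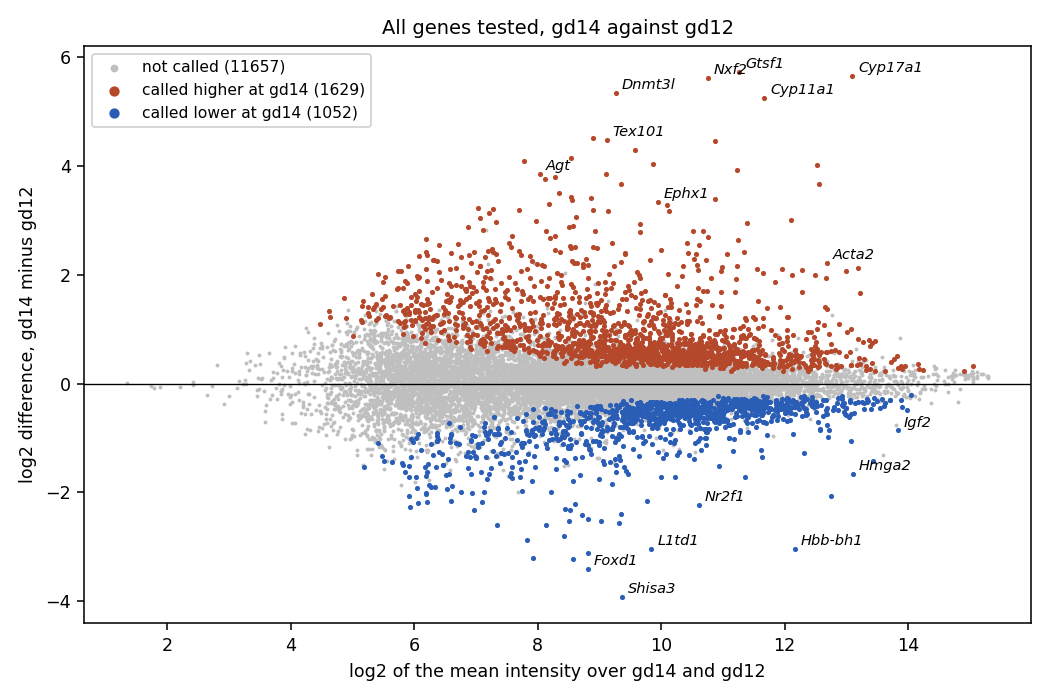
Difference between gd14 and gd12 (log2, positive when higher at gd14) against the log2 of the mean intensity over both stages, one point per gene tested, with 1629 genes called higher in red and 1052 called lower in blue. The red cloud reaches above 5, with Gtsf1, Cyp17a1 and Nxf2 at the top, and the blue cloud ends near Shisa3 at -3.92.

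The germ cell genes of the piRNA pathway made up the broadest rise among the germ cell lists. Of 26 tested members, 22 rose and 0 fell, where 11.4% of all genes rose, with a median difference of 2.10 against 0.03 for all genes. Of the 22, 20 were called with any of the 6 arrays left out, and Gtsf1l and Tdrd12 were not. The count was 21 without pool 13, 23 without pool 14 and 18 with pool 15 alone.

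Among the Piwi proteins, which bind the piRNAs, Piwil2 read 2616, 2335 and 2389 in gd14 testes, against 267, 588 and 702 in the gd12 pools (log2 difference 2.29 ± 0.27 SE, adjusted p = 1.59e-05). Piwil4, the nuclear Piwi protein of the fetal germ cell, read 929, 556 and 678 in gd14 testes and 20.2, 2.04 and 43.6 in the gd12 pools, all near background. Piwil4 was thus at least 9.84-fold higher at gd14 (adjusted p = 2.73e-06). Piwil1, best known from meiotic and later cells, read 150, 122 and 144 in gd14 testes, against 38.6, 5.73 and 39.7 in the gd12 pools, a rise of at least 1.92-fold from near background. All 3 Piwi genes thus rose, with the stages separated in each.

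The proteins of the germ granule, or nuage, where piRNAs are made, followed. Tdrd1, the Tudor protein that docks Piwi proteins, read 559, 322 and 431 in gd14 testes, against 2.72, 4.05 and 5.43 in the gd12 pools, at least 5.96-fold higher. Tdrd9, a helicase partner of Piwil4, read 1104, 857 and 1180 in gd14 testes, against 26.4, 60.2 and 76.4 in the gd12 pools (3.85 ± 0.29, adjusted p = 7.91e-08). Mael, a nuage protein required for transposon silencing, read 11972, 9629 and 11532 in gd14 testes, against 332, 850 and 1003 in the gd12 pools (4.02 ± 0.55). Tdrd3, a Tudor gene expressed well outside the germ line, differed by -0.15 ± 0.09 and the Tudor gene Tdrkh by 0.52 ± 0.37, and neither was called.

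Gtsf1, a zinc finger partner of Piwi proteins, had the largest difference of all genes tested. It read 4708, 4560 and 5266 in gd14 testes, against 58.7, 80.2 and 70.7 in the gd12 pools (5.72 ± 0.32, adjusted p = 1.96e-09). A second probe set of Gtsf1 gave 4.44 ± 0.41. Its paralog Gtsf1l read 579, 459 and 531 in gd14 testes and 61.7, 271 and 126 in the gd12 pools, a rise of 1.82 ± 0.51 that was not called without pool 13 (adjusted p = 0.0981) or without gd14 array 10 or 12. Mov10l1, the helicase that starts piRNA processing, rose by 3.17 ± 0.32, and Morc1, a chromatin protein needed for transposon repression, by 4.46 ± 0.44. Enzymes of piRNA end processing rose as well. Pnldc1, the trimmer, rose by 1.74 ± 0.32, Pld6, the mitochondrial nuclease, by 1.28 ± 0.26, and Henmt1, the methyltransferase that caps the 3' end, was at least 2.32-fold higher from near background. Mybl1, the transcription factor of the later, meiotic piRNA genes, differed by -0.01 ± 0.45 and was not called.

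Stretches of 250 bases before the annotated starts of the germ cell genes were read for short motifs in RefSeq sequence of GRCm38.p6. They are shown because many of these genes rose and several of them share CACGTG, a palindrome read by basic helix-loop-helix factors. It stood in 7 of 20 piRNA genes with a promoter sequence, in 7 of 20 fetal male germ cell genes and in 6 of 20 meiosis genes. Among all 27025 genes the share was 6.86%. The lists share members that hold it, Mov10l1 among them, and not every gene that held it was called. It also stood in 3 of 11 genes of sterol control and uptake, in 3 of 13 ovary genes and in 4 of 18 Hox genes, whose called members fell, and in 1 of 19 pluripotency genes. A gene with several annotated starts counted when any held the motif. The motif contains CG, and base composition was not matched between the lists and all genes. The capitals mark CACGTG in 5 genes that rose.
Tdrd1: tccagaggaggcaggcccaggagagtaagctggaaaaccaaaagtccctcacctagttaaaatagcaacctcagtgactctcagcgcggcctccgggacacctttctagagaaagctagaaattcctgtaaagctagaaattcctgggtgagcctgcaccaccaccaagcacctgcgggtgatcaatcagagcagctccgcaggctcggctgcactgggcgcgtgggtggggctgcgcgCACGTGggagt
Ddx4: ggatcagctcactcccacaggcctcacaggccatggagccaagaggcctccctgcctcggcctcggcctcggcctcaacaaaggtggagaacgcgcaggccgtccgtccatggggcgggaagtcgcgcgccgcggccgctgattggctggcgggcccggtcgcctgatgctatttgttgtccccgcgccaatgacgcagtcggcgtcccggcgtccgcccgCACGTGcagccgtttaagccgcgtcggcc
Mov10l1: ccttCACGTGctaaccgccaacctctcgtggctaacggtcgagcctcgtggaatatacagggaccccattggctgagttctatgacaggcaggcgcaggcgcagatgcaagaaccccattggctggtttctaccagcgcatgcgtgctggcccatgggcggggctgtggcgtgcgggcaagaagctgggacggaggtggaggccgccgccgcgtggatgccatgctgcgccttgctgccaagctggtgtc
Sycp3: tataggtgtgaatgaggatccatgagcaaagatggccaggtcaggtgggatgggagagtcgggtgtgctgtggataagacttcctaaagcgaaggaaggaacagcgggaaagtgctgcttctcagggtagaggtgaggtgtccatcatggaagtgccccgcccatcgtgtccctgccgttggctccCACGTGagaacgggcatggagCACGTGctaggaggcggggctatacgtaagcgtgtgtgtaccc
Tex12: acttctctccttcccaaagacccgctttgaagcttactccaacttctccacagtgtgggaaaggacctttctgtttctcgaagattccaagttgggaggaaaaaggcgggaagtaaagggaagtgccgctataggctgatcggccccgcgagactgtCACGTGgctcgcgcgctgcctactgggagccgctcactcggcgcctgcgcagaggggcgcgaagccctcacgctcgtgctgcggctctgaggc
Each line runs 5′ to 3′ on the strand of the gene and ends at the base before its start. The Tdrd1 window is chr19:56825959-56826208 on the plus strand, one of 3 annotated starts, with its match beginning 11 bases before the start. The Ddx4 window is chr13:112652311-112652560 on the minus strand, with the match 29 bases before the start. The Mov10l1 window is chr15:88982744-88982993 on the plus strand, with the match near its far end, 246 bases before the start. The Sycp3 window is chr10:88459337-88459586 on the plus strand and holds 2 matches, 64 and 43 bases before the start. The Tex12 window is chr9:50561269-50561518 on the minus strand, with the match 93 bases before the start. Gtsf1 and Piwil4 held no CACGTG in this window. A match of letters is a description and not a binding site. In all 10 motifs were searched on both strands. Beside CACGTG and the wider CANNTG that contains it, these were the SF-1 core AAGGTCA and the sterol element TCACNCCAC. The others were CCAAT with the longer GATTGG, which holds its reverse complement, then the E2F form TTTGGCG, the palindrome TCGCGAGA, the cyclic AMP element TGACGTCA and its variant TACGTCA. The 2 motifs described were chosen after the counts were seen.

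The list of other fetal male germ cell genes also held many rises. Of 24 tested, 15 rose and 0 fell (median 1.80), of which 13 were called with any array left out, and 12 with pool 15 alone. Nxf2, on the X chromosome, encodes a nuclear RNA export factor and read 4268, 2353 and 3616 in gd14 testes, against 43.6, 34.9 and 60.9 in the gd12 pools, at least 46.2-fold higher (adjusted p = 7.88e-09). Tex101, which encodes a germ cell surface protein, read 1219, 843 and 1181 in gd14 testes, against 22.6, 54.2 and 11.2 in the gd12 pools, at least 14.9-fold higher. Both genes were near background in each gd12 pool and well above it in each gd14 testis. Taf7l, an X-linked subunit of the germ cell TFIID complex, rose by 3.41 ± 0.47, and Brdt, a testis bromodomain protein, by 2.80 ± 0.27. Dnd1, whose loss in mice leads to germ cell tumours, read 3720, 3754 and 4030 in gd14 testes, against 359, 1372 and 1171 in the gd12 pools (2.17 ± 0.37).

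Not every germ cell gene rose, and the germ cell RNA-binding genes divided. Ddx4, the helicase Vasa, read 5409, 4503 and 4418 in gd14 testes, against 559, 1609 and 1439 in the gd12 pools, a rise of 2.10 ± 0.33 (adjusted p = 0.000203) that was 1.63 without pool 13. Dazl, with the values given above, differed by 0.57 ± 0.33 over all pools and by 0.08 without pool 13, and was called in neither case. Elavl2 differed by -0.32 ± 0.75 and Cpeb1 by 0.53 ± 0.37. Among genes outside the lists, Stk31, a Tudor domain kinase gene, rose by 3.93 ± 0.41 and Tktl1, an X-linked transketolase-like gene, by 4.29 ± 0.32.

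With the brightest probe set standing for each gene, Dnmt3l rose and 3 other genes of the 15 in the DNA methylation list fell. Dnmt3l encodes the cofactor of the de novo methyltransferases in germ cells, and read 1356, 966 and 1341 in gd14 testes, against 4.73, 11.3 and 7.83 in the gd12 pools, at least 16.9-fold higher (adjusted p = 7.88e-09). The probe sets of Dnmt3a, a methyltransferase it acts with, differed among themselves. The one standing for the gene read 1083, 1237 and 1147 in gd14 testes and 1254, 1043 and 1152 in the gd12 pools (0.01 ± 0.20). Of its other probe sets, 1 was called higher at 1.68 ± 0.18 (mean 1690 at gd14 and 526 at gd12, adjusted p = 4.95e-06 over all probe sets) and 1 at 0.98 ± 0.25 (adjusted p = 0.0122), while those at 0.03 ± 0.26 and 0.51 ± 0.22 were not called. No direction is therefore given for Dnmt3a. Dnmt3b differed by 0.01 ± 0.16 and was not called. Tet1, a demethylase, read 860, 499 and 747 in gd14 testes, against 957, 1339 and 1450 in the gd12 pools (-0.82 ± 0.17, adjusted p = 0.00248). Uhrf2, a paralog of the maintenance factor Uhrf1, fell by 0.84 on the log2 scale. Mbd1, a methyl-binding protein gene, was called at -0.40 ± 0.13 but in no more than 1 of the 6 fits with an array left out, and its middle probe set by brightness gave 0.15.

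Several meiosis genes, among them genes of the synaptonemal complex, rose at gd14, long before male meiosis begins. Of 22 tested, 9 rose and 0 fell (median 1.03), and 6 of the 9 were called with any array left out. Tex12, a synaptonemal complex protein gene, read 2209, 1476 and 1630 in gd14 testes, against 31.3, 117 and 145 in the gd12 pools (4.04 ± 0.34, adjusted p = 3.07e-07). Sycp3, of the axial element, read 2517, 2147 and 2181 in gd14 testes, against 119, 728 and 503 in the gd12 pools (2.59 ± 0.38). Sycp1 and Sycp2 rose by 2.53 ± 0.38 and 2.81 ± 0.31. Stra8, the gene through which retinoic acid starts meiosis, read 164, 127 and 80.9 in gd14 testes and 22.5, 160 and 62.3 in the gd12 pools, so the stages overlapped (0.68 ± 0.48, adjusted p = 0.356). The recombination genes Dmc1 and Spo11 were not called, at 0.44 ± 0.26 and 0.69 ± 0.36. Syce2, of the central element, was the exception in direction, at -0.63 without pool 13 (adjusted p = 0.0154), where it was called lower.

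The pluripotency and primordial germ cell list gave different counts with and without pool 13. With all pools, 6 of 27 rose and 1 fell (median -0.02), and 1 rise and 0 falls kept the call with any array left out. Without pool 13, 1 rose and 5 fell, and with pool 15 alone 1 rose and 1 fell. The member called higher in each of these fits was Dppa4, a chromatin protein of pluripotent cells, which read 7579, 7934 and 7989 in gd14 testes, against 715, 3060 and 2714 in the gd12 pools (2.09 ± 0.42, and 1.44 without pool 13).

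Core pluripotency factors differed among themselves. Pou5f1, which encodes Oct4, read 2303, 2367 and 2122 in gd14 testes, against 328, 1434 and 957 in the gd12 pools, a rise of 1.53 ± 0.41 that was not called without pool 13 (0.94, adjusted p = 0.0935). Dppa3, which guards methylation in the early embryo, was likewise called over all pools and not without pool 13 (adjusted p = 0.0906). Nanog read 378, 225 and 246 in gd14 testes and 122, 480 and 371 in the gd12 pools, and Sox2 read 1758, 1183 and 1220 in gd14 testes and 652, 2309 and 2039 in the gd12 pools. For Sox2 every gd14 value lay between pool 13 and the other pools, and for Nanog the stages overlapped. Prdm14, a regulator of germ cell specification, read 187, 172 and 170 in gd14 testes and 149, 662 and 572 in the gd12 pools, a fall of 1.68 on the log2 scale without pool 13 (adjusted p = 0.0181) that was not called over all pools. Gdf3, Tfap2c and Mybl2 were likewise called lower without pool 13, at -1.06, -1.06 and -0.65, and not over all pools. Kit, the receptor for the survival factor Kitl, read 594, 510 and 508 in gd14 testes, against 681, 1304 and 1375 in the gd12 pools (-0.97 ± 0.26), and its call was lost without pool 14 or pool 15. Kitl itself, made by somatic cells, read 2252, 1361 and 1503 in gd14 testes, against 2633, 6931 and 4274 in the gd12 pools (-1.35 ± 0.34), highest in pool 14, and was not called without that pool (adjusted p = 0.0625).

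Genes outside the lists showed the largest falls of germ cell type. L1td1, an RNA-binding protein gene of pluripotent cells, read 276, 125 and 127 in gd14 testes, against 772, 2009 and 2205 in the gd12 pools (-3.03 ± 0.43, adjusted p = 8.37e-05). The X-linked homeobox genes Rhox6 and Rhox9 also fell, and shared sequence between Rhox genes makes the share of each uncertain. Rhox9 read 181, 97.2 and 114 in gd14 testes, against 269, 2067 and 1103 in the gd12 pools (-2.56 ± 0.52). Rhox6 was near background on all gd14 arrays and at least 7.39-fold lower than at gd12. In both, pool 13 held the lowest gd12 value, as for most germ cell genes.

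Nodal signalling, which is active in fetal male germ cells around this time, gave calls for some genes and not for others. Tdgf1, its coreceptor Cripto, was near background in gd14 testes at 6.74, 4.77 and 6.06, against 81.7, 114 and 153 in the gd12 pools, at least 1.57-fold lower (adjusted p = 9.07e-05). Nodal read 412, 345 and 163 in gd14 testes and 97, 280 and 273 in the gd12 pools (0.49 ± 0.39, not called). The inhibitor Lefty1 read 435, 221 and 159 in gd14 testes, against 290, 887 and 814 in the gd12 pools, and was called lower without pool 13 (-1.68, adjusted p = 0.0464) but not over all pools. In the whole Nodal, activin and TGF-beta list, 2 of 29 rose and 5 fell, where 11.4% of all genes rose and 7.34% fell. Of these calls, 1 rise and 3 falls held with any array left out. Acvr2b, an activin receptor gene, read 280, 328 and 335 in gd14 testes, against 642, 678 and 693 in the gd12 pools (-1.05 ± 0.21). Tgfbr1, the type I TGF-beta receptor gene, fell by 0.57 on the log2 scale. Both kept the call without any single array.

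Among genes later used by spermatogonia, 4 of 19 rose and 1, Kit, fell, and 3 of the rises kept the call with any array left out. Sohlh1, a helix-loop-helix factor, read 249, 204 and 310 in gd14 testes, against 3.56, 10.9 and 6.3 in the gd12 pools, at least 3.5-fold higher (adjusted p = 1.28e-06). Its partner Sohlh2 read 425, 243 and 186 in gd14 testes and 231, 715 and 653 in the gd12 pools, and was called lower without pool 13 (-1.27, adjusted p = 0.00561) but not over all pools. Upp1, a uridine phosphorylase gene, rose by 2.51 ± 0.26, and Uchl1, a ubiquitin hydrolase gene of spermatogonia, by 2.54 ± 0.50. Ret rose by 1.11 ± 0.35, a call that 5 of the 6 fits with an array left out did not give, and its middle probe set gave -0.11.

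**Figure D3:**
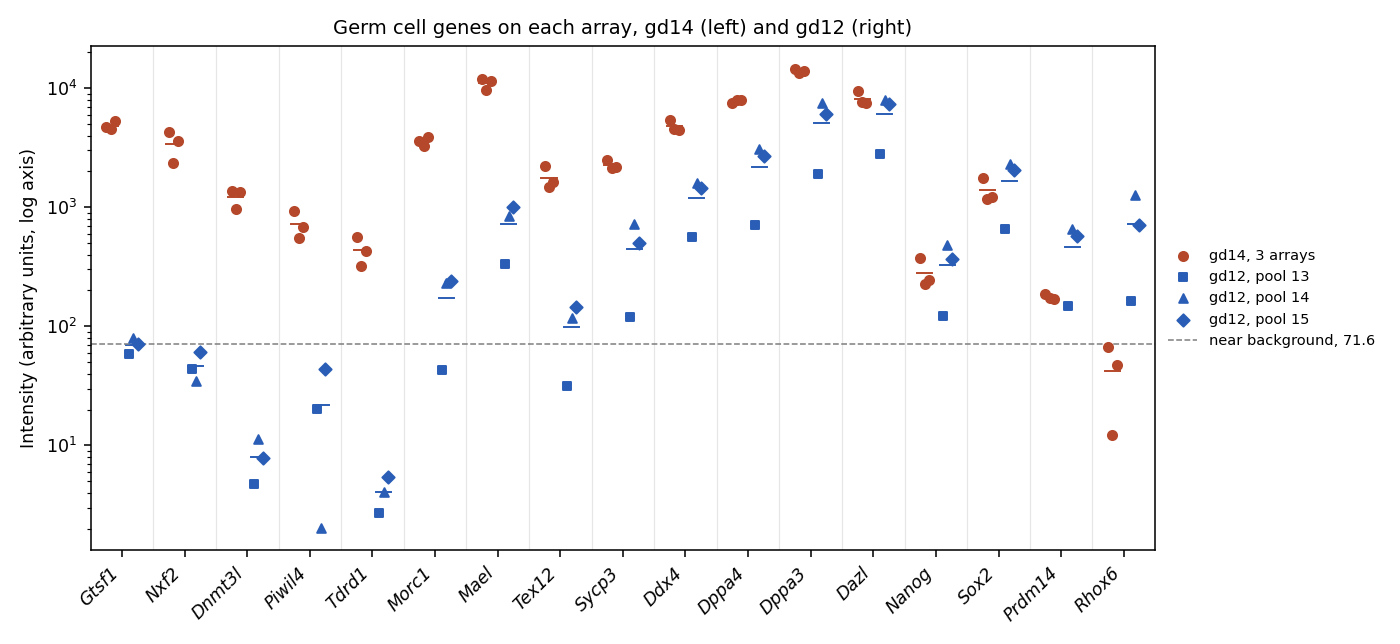
Intensity (arbitrary units, log axis) of 17 germ cell genes on the 3 gd14 arrays (red circles, left of each pair) and the 3 gd12 pools (blue, right, one symbol per pool), with bars at the stage means and a dashed line at 71.6. Gtsf1 to Dppa3 lie higher on every gd14 array than in every pool, Dazl, Nanog and Sox2 overlap, and pool 13 (squares) is the lowest pool in 15 of the 17 genes.

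Some of the steroid enzymes and carriers rose steeply, and all called members were called with any array left out. Of 16 tested, 6 rose with the middle probe set of each gene by brightness. With the brightest, 8 rose and 0 fell (median 0.69). The same number rose without pool 13, without pool 14 and with pool 15 alone. In order of the pathway, Star, which carries cholesterol into the mitochondrion, read 3274, 3081 and 3855 in gd14 testes, against 618, 138 and 314 in the gd12 pools (3.39 ± 0.60). Cyp11a1, the side-chain cleavage enzyme, read 6326, 6324 and 6250 in gd14 testes, against 460, 58.1 and 96.4 in the gd12 pools (5.25 ± 0.52, adjusted p = 1.63e-06). The gd14 testes differed by little from each other, while pool 13 held the highest gd12 value of both genes.

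Fdx1, the ferredoxin that supplies electrons to Cyp11a1, read 9887, 9887 and 11158 in gd14 testes, against 3092, 2402 and 2537 in the gd12 pools (1.94 ± 0.19, adjusted p = 1.41e-06). Hsd3b1, whose probe set may also match its close paralogs, read 9624, 11512 and 11844 in gd14 testes, against 2074, 417 and 666 in the gd12 pools (3.67 ± 0.37). Cyp17a1, which makes the androgen precursors, read 16564, 16806 and 17994 in gd14 testes, against 717, 203 and 214 in the gd12 pools (5.65 ± 0.38, adjusted p = 2.09e-08). Without pool 13 the differences of Cyp17a1, Cyp11a1, Hsd3b1 and Star were 6.21, 6.01, 4.32 and 3.87, each larger than with it.

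Among the 17-beta-hydroxysteroid dehydrogenases, which include the enzyme of the last step to testosterone, 3 of the 5 listed were called. Hsd17b3, in the mouse fetus a Sertoli cell enzyme, read 988, 1173 and 1154 in gd14 testes, against 289, 234 and 409 in the gd12 pools (1.79 ± 0.28). Hsd17b1 rose by 2.37 ± 0.38 and Hsd17b7, which also acts in cholesterol synthesis, by 1.06 ± 0.16. Hsd17b11 (-0.66 ± 0.24) and Hsd17b12 (0.20 ± 0.10) were not called. Of the other members, those not called included the cytochrome Cyb5a (-0.02 ± 0.11), the mitochondrial protein gene Tspo (0.33 ± 0.18) and Stard3 (-0.01 ± 0.12). The transcription factors that switch on these enzymes were not called either. Nr5a1 (SF-1) read 1798, 2461 and 1970 in gd14 testes and 1720, 1185 and 2292 in the gd12 pools, and Gata4 read 1632, 2099 and 2220 in gd14 testes and 1801, 1602 and 2790 in the gd12 pools. For both, the stages overlapped.

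In the list of Leydig regulators, hormones and receptors, 7 of 20 rose and 0 fell, and 5 of the 7 kept the call with any array left out. Scarb1, the receptor that takes up cholesterol esters, read 7188, 7255 and 6900 in gd14 testes, against 2024, 1316 and 2098 in the gd12 pools (1.99 ± 0.20, adjusted p = 1.75e-06). Prkar2b, a regulatory subunit of protein kinase A, rose by 1.92 ± 0.24, Cited1, a transcriptional coactivator gene, by 2.27 ± 0.44 and Crhr1, a corticotropin-releasing hormone receptor gene, by 1.85 ± 0.41. The calls of Sct, encoding the hormone secretin, and Lipe, encoding the hormone-sensitive lipase, were lost in 3 fits each. Mc2r, the corticotropin receptor gene, read 296, 273 and 348 in gd14 testes and 626, 346 and 418 in the gd12 pools and was not called. Cyp11b1, an adrenal enzyme, read 468, 277 and 372 in gd14 testes and 379, 9.89 and 23.4 in the gd12 pools, so pool 13 lay among the gd14 testes and the other pools were near background. Mrap, the accessory protein of Mc2r, read 204, 235 and 301 in gd14 testes, against 85.6, 16 and 13 in the gd12 pools (2.33 ± 0.35). Agt, the angiotensin precursor gene, was at least 6.49-fold higher from near background at gd12. The angiotensin receptor Agtr2 read 179, 139 and 239 in gd14 testes and 3497, 1006 and 188 in the gd12 pools. Pool 15 matched the gd14 level of Agtr2, and its fall of 2.16 on the log2 scale was not called without pool 13 (adjusted p = 0.151), nor without pool 14 or gd14 array 10 or 11.

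The enzymes that make cholesterol rose as a nearly complete pathway. Of 16 tested, 15 rose and 0 fell, with a median difference of 1.01, and all 15 were called with any array left out. With pool 15 alone, 10 were called. The rises ranged from 0.54 ± 0.13 for Pmvk to 1.76 ± 0.32 for Tm7sf2, a sterol reductase gene. Hmgcs1, at the entry to the mevalonate pathway, read 13330, 13086 and 13642 in gd14 testes, against 7170, 7953 and 7820 in the gd12 pools (0.80 ± 0.18). Fdps, which makes farnesyl pyrophosphate, read 9284, 9333 and 9459 in gd14 testes, against 2686, 4328 and 3721 in the gd12 pools (1.41 ± 0.18, adjusted p = 3.51e-05). Msmo1, a demethylating oxidase of the sterol ring, read 5212, 4373 and 5019 in gd14 testes, against 1832, 1732 and 1923 in the gd12 pools (1.40 ± 0.18). The last enzyme, Dhcr7, read 3212, 2766 and 3141 in gd14 testes, against 953, 703 and 1189 in the gd12 pools (1.69 ± 0.26). In each of these genes every gd14 testis lay above every pool. Sqle, the squalene epoxidase gene, had the same direction without overlap (0.45 ± 0.17) but was not called (adjusted p = 0.0828). Srebf2, the factor that drives this pathway, read 1379, 1466 and 1431 in gd14 testes, against 962, 634 and 716 in the gd12 pools (0.89 ± 0.17, adjusted p = 0.00103), while Srebf1, more a factor of fatty acid synthesis, differed by 0.22 ± 0.10 and was not called.

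The promoters of these enzymes are shown because all 13 with a RefSeq promoter sequence, each of which rose, held CCAAT on either strand, the box bound by NF-Y, against 37.5% of all genes. The box is common, and it also stood in 19 of 26 cell division genes, whose called members fell, in 7 of 10 steroid genes and in 15 of 22 glutathione and detoxification genes. TCACNCCAC, a form of the sterol response element, stood in 1 of the 13. The capitals mark CCAAT or its reverse complement.
Hmgcs1: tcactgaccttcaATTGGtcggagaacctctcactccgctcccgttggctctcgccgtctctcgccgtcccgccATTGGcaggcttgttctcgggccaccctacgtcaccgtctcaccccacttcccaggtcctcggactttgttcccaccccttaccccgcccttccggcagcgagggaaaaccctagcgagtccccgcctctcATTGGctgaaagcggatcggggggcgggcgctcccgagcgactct
Idi1: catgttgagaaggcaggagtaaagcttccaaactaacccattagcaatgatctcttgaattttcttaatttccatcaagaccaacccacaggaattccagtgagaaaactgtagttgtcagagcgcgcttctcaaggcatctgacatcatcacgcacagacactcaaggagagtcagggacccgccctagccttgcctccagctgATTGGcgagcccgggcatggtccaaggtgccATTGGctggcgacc
Msmo1: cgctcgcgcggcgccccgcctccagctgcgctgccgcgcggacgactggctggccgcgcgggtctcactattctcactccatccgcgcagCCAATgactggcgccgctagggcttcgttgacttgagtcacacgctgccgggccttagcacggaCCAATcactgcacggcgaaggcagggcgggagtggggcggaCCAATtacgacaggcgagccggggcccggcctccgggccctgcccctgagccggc
The Hmgcs1 window is chr13:119690101-119690350 on the plus strand of GRCm38.p6, with matches 237, 176 and 45 bases before the start. The Idi1 window is chr13:8885356-8885605 on the plus strand, with matches 45 and 14 bases before the start. The Msmo1 window is chr8:64733579-64733828 on the minus strand, with matches 160, 96 and 55 bases before the start. Idi1, the isomerase of isopentenyl pyrophosphate, rose by 1.02 ± 0.18. AAGGTCA, the core bound by SF-1, stood in 1 of the 10 steroid genes with a promoter sequence and in 4.7% of all genes, and no factor binding is inferred from a match or its lack.

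**Figure D4:**
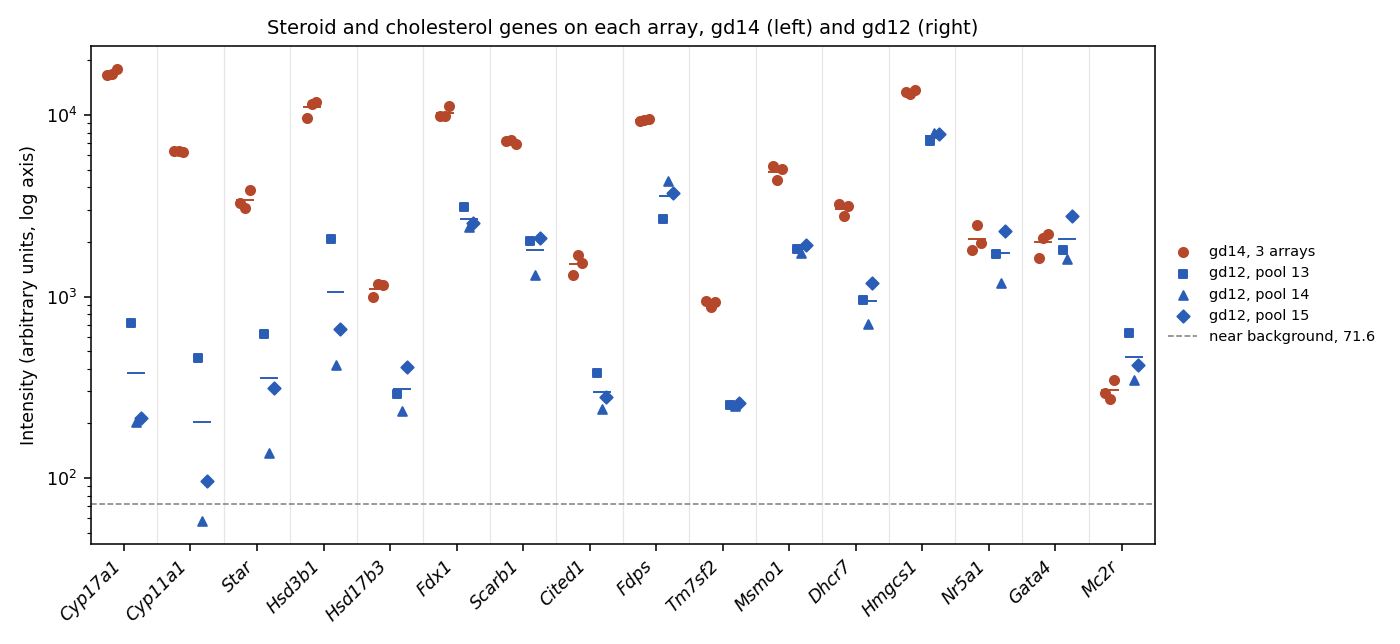
Intensity (arbitrary units, log axis) of 16 steroid and cholesterol genes on the 3 gd14 arrays (red circles, left of each pair) and the 3 gd12 pools (blue, right, one symbol per pool), with bars at the stage means and a dashed line at 71.6. The enzymes Cyp17a1 to Dhcr7 and Hmgcs1 are separated between stages, the factors Nr5a1 and Gata4 overlap, and pool 13 (squares) is the highest pool for Cyp17a1, Cyp11a1, Star and Hsd3b1.

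Sertoli cell genes rose in part. Of 32 tested, 9 rose and 1 fell (median 0.40), 7 of the 9 rises held with any array left out, and 5 were called with pool 15 alone. Sox9, Amh and Dhh, early markers of the cell, were not called. Sox9 read 614, 567 and 684 in gd14 testes and 769, 798 and 891 in the gd12 pools (-0.39 ± 0.28), Amh read 990, 1752 and 1456 in gd14 testes and 994, 445 and 1556 in the gd12 pools, and Dhh, the hedgehog ligand, read 2727, 3500 and 3419 in gd14 testes and 1811, 1844 and 3130 in the gd12 pools. Fgf9, a signal that sustains Sertoli fate, read 164, 267 and 201 in gd14 testes and 285, 394 and 537 in the gd12 pools (-0.86 ± 0.30, adjusted p = 0.0512), and a second probe set was called lower (-1.28 ± 0.29, adjusted p = 0.00565 over all probe sets). In Amh and Dhh, pool 15 reached the gd14 range and the other pools lay lower or at its edge.

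Genes that rose included hormone subunits, receptors and secreted proteins. Inha, the inhibin alpha subunit, read 5563, 7280 and 6601 in gd14 testes, against 1604, 1129 and 1751 in the gd12 pools (2.12 ± 0.31, adjusted p = 0.000113). Fshr, the receptor for follicle-stimulating hormone, read 115, 95.8 and 127 in gd14 testes and was near background in each gd12 pool, at least 1.56-fold higher (adjusted p = 0.00142). Cst12, a cystatin gene whose relatives share sequence, rose by 2.50 ± 0.38, and Defb19, a beta-defensin gene, by 1.99 ± 0.35. Clu, encoding the secreted chaperone clusterin, read 13511, 16633 and 14779 in gd14 testes, against 3992, 1749 and 5511 in the gd12 pools (2.14 ± 0.53), and was not called without pool 14 (adjusted p = 0.0519). The protease inhibitor gene Serpina5 was at least 2.4-fold higher from near background. The call of Ptgds, the prostaglandin D synthase gene, at 1.08 ± 0.36 was lost in 5 of the 6 fits with an array left out. Col9a1, a collagen IX chain, was the member called lower (-1.66 ± 0.55), lost in 4.

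Genes of the early gonad were mostly not called. Of 19, 2 rose and 1 fell, and 1 rise and 0 falls kept the call with any array left out. Sry, the testis-determining gene, was near background in gd14 testes at 23.9, 16.5 and 14.3, and in the gd12 pools it read 25.8, 60.4 and 255, so only pool 15 was above background. Sry was not called (adjusted p = 0.0703). Six4, a homeobox gene upstream of Sry and Nr5a1 in the mouse, read 1506, 1224 and 1052 in gd14 testes, against 410, 559 and 541 in the gd12 pools (1.28 ± 0.25). Wt1, the gonadal ridge factor, read 2245, 2255 and 2738 in gd14 testes and 5008, 3931 and 5360 in the gd12 pools, without overlap but short of the threshold (-0.97 ± 0.37, adjusted p = 0.0758). Usp9y, a Y-linked ubiquitin protease gene, read 699, 665 and 678 in gd14 testes and 3.4, 43.5 and 142 in the gd12 pools (3.43 ± 0.51), while the Y-linked genes Kdm5d and Uty differed by -0.19 and 0.00 and were not called. Eif2s3y, another Y-linked gene, rose by 0.63 ± 0.16, a call lost without gd14 array 10.

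Of the signals between germ cells, vessels and soma, 3 of 29 rose and 5 fell. Only 1 rise and 2 falls kept the call with any array left out. Vegfa fell by 0.68 on the log2 scale, a call lost without gd14 array 10 or pool 15. The Notch target Hey1 read 481, 534 and 543 in gd14 testes, against 882, 1055 and 1525 in the gd12 pools (-1.08 ± 0.15, adjusted p = 7.06e-05). Its relative Heyl, found in vessel-associated cells, read 684, 900 and 754 in gd14 testes, against 337, 165 and 285 in the gd12 pools (1.54 ± 0.27). These 2 related genes thus moved in opposite directions, each with the stages separated and the call kept with any array left out. In the hedgehog list 0 of 14 rose and 1 fell, Gas1, a coreceptor gene whose call was lost without pool 13 or gd14 array 10.

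Peritubular and matrix genes showed single rises. Of the 20 peritubular myoid and smooth muscle genes, 2 rose and 1 fell (median 0.61), near the 11.4% and 7.34% of all genes. Of these calls, 1 rise and 1 fall held with any array left out. Acta2, smooth muscle actin, read 10646, 11054 and 10747 in gd14 testes, against 2780, 2396 and 1812 in the gd12 pools (2.23 ± 0.57). Myh11, the smooth muscle myosin chain, read 250, 305 and 227 in gd14 testes and 129, 150 and 93.5 in the gd12 pools, with no overlap and no call (adjusted p = 0.0755). Itga8, the integrin alpha 8 gene, read 1378, 1138 and 1144 in gd14 testes, against 4707, 3670 and 3780 in the gd12 pools (-1.71 ± 0.26, adjusted p = 0.000176). In the matrix list 6 of 33 rose and 1 fell, and 4 rises and 0 falls kept the call with any array left out. Col6a1, a collagen VI chain, read 5313, 6307 and 5971 in gd14 testes, against 3670, 1725 and 2440 in the gd12 pools (1.22 ± 0.28), and Lama2 and Eln, a laminin chain and elastin, rose by 1.10 ± 0.19 and 1.32 ± 0.36. Of the interstitial and stromal genes, 3 of 29 rose and 3 fell, and 1 rise and 1 fall kept the call with any array left out. Mfap4, an elastic fibre protein gene, rose by 1.12 ± 0.19.

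Over all pools, endothelial genes were called lower more often than all genes tested, and the count depended on pool 13. Of 26 tested, 6 fell and 1 rose (median -0.48), where 7.34% of all genes fell and 11.4% rose. Without pool 13, 2 fell and 1 rose (median -0.37), and without pool 14, 5 fell and 1 rose (median -0.58). With pool 15 alone the median was -0.36. Only 2 of the 6 falls held with any array left out. The 2 were Emcn, encoding endomucin, which read 596, 486 and 603 in gd14 testes, against 2074, 1326 and 1183 in the gd12 pools (-1.37 ± 0.28), and Plvap, a vessel diaphragm gene, at -0.99 ± 0.24. Pool 13 was the highest pool for 21 of the 26. Vwf, which encodes von Willebrand factor, rose, at 751, 598 and 883 in gd14 testes, against 195, 115 and 99.9 in the gd12 pools (2.30 ± 0.45, adjusted p = 0.00161). Pecam1 and Cdh5, the defining markers, were not called (-0.50 and -0.43).

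Most cell division genes fell, by mostly small amounts. Of 34 tested, 22 fell and 0 rose (median -0.40), against 7.34% of all genes. The 12 not called included Bub1 (0.0), Bub1b (-0.09), Aurka, Plk1 and Cdc20. Of the falls, 10 of the 22 were called with any array left out, and 13 with pool 15 alone. Without pool 13, which is low in germ cell genes, 24 fell, and without pool 14, 16 fell. Ccne1, cyclin E1, read 306, 323 and 274 in gd14 testes, against 835, 831 and 884 in the gd12 pools (-1.44 ± 0.17, adjusted p = 1.56e-05). Ccnd1, cyclin D1, read 650, 725 and 668 in gd14 testes, against 2501, 1491 and 1341 in the gd12 pools (-1.30 ± 0.22). Rrm2, the subunit of ribonucleotide reductase made in S phase, read 3159, 2875 and 3248 in gd14 testes, against 5477, 5801 and 6333 in the gd12 pools (-0.92 ± 0.12). The falls of Ccne1, Ccnd1 and Rrm2 exceeded those of the replication helicase genes, of which Mcm4 differed by -0.40 ± 0.10 and Mcm7 by -0.30 ± 0.10, a call lost in 5 of the 6 fits.

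Of 17 inhibitors of the cell cycle, 3 rose and 2 fell. Cdkn2b, encoding p15, read 278, 192 and 297 in gd14 testes and was near background in every gd12 pool, at 69.8, 50.8 and 17.2, a rise of at least 3.51-fold (adjusted p = 0.000158). It was the member of the list whose call held with any array left out. Rb1 rose by 0.87 ± 0.24, a call lost without pool 13 or gd14 array 10. Cdkn1c, encoding p57, read 3627, 4576 and 4196 in gd14 testes and 11788, 8199 and 4250 in the gd12 pools. Pool 15 matched the gd14 level of Cdkn1c, and its call was lost without pool 13 (adjusted p = 0.0931), pool 14 or gd14 array 10.

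In the embryonic growth program, a list of Lin28 and let-7 related genes and imprinted growth genes, 3 of 10 fell and 3 rose. Hmga2, a chromatin protein gene, read 4189, 3894 and 4565 in gd14 testes, against 13983, 12769 and 13510 in the gd12 pools (-1.67 ± 0.21, adjusted p = 2.42e-05), and all 4 of its probe sets gave falls of that size or more. Igf2, the growth factor gene, read 9265, 10816 and 10592 in gd14 testes, against 23901, 15936 and 16727 in the gd12 pools (-0.86 ± 0.20). Igf2bp3, which binds its RNA, fell by 0.42 on the log2 scale. Lin28a and Trim71, expressed in germ cells at this age, were called higher at 1.53 ± 0.43 and 0.88 ± 0.30, and neither was called without pool 13. The call of Lin28a was also lost without gd14 array 10, and that of Trim71 in 5 of the 6 fits. Arid3b, a DNA-binding protein gene, rose by 1.27 ± 0.27 and kept its call in each fit.

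Hox genes, which give position along the body axis, were lower in number, and here the pools decided the calls. Of 29 tested, 14 fell and 0 rose (median -0.92), 7 fell without pool 13, and 0 were called with pool 15 alone. Hoxa5 read 129, 73.2 and 108 in gd14 testes, against 1313, 827 and 268 in the gd12 pools (-2.48 ± 0.42). Hoxa9 read 168, 196 and 133 in gd14 testes, against 1819, 1232 and 385 in the gd12 pools (-2.40 ± 0.48). In both, every pool lay above every gd14 testis and the pools themselves differed several-fold, with pool 13 the highest and pool 15 the lowest. The summed level of the list was 8003, 8238 and 9362 in gd14 testes and 18969, 13611 and 9900 in the gd12 pools. Pool 13 was also the highest and pool 15 the lowest in the next 3 genes. Foxd1, a kidney stroma factor, read 1379, 1071 and 135 in the gd12 pools and was near background in gd14 testes, at least 8.15-fold lower there. Shisa3, encoding an adaptor that restrains Wnt and FGF signals, read 2473, 943 and 404 in the gd12 pools and was at least 13.7-fold lower and near background in gd14 testes. Nr2f1, a nuclear receptor of mesenchyme, read 489, 439 and 497 in gd14 testes, against 4112, 2702 and 1110 in the gd12 pools (-2.23 ± 0.32, adjusted p = 9.08e-05), and without pool 13 it fell by 1.82 on the log2 scale. The part of neighbouring tissue in these falls was not tested.

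Several smaller lists held single changes. Of 18 retinoic acid genes, 4 fell and 0 rose, and 3 of the 4 kept the call with any array left out. Crabp1, which binds retinoic acid in the cell, read 152, 245 and 215 in gd14 testes, against 1067, 1581 and 268 in the gd12 pools (-1.84 ± 0.44), and with pool 15 alone its difference was -0.38 and not called. Rarb, a retinoic acid receptor gene, fell by 1.44 on the log2 scale with the same pool lowest. Among 14 nuclear hormone receptors 1 rose and 1, Nr2f1, fell. Esr1, the oestrogen receptor alpha gene, read 486, 491 and 443 in gd14 testes, against 314, 196 and 130 in the gd12 pools (1.15 ± 0.29), so every gd14 testis lay above every pool. Its call was lost without pool 15.

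Of 24 imprinted genes, 1 rose and 4 fell, and 1 rise and 3 falls kept the call with any array left out. Kcnq1ot1, the noncoding RNA of an imprinted cluster, read 397, 509 and 426 in gd14 testes, against 1368, 1185 and 928 in the gd12 pools (-1.33 ± 0.23, adjusted p = 0.000577). Rasgrf1, a paternally expressed exchange factor gene, was at least 1.16-fold higher from near background. Of 15 genes of sterol control and uptake, 4 rose, Scarb1 and Srebf2 among them, and 1 fell. The faller was Vldlr, a lipoprotein receptor gene, at 213, 286 and 249 in gd14 testes, against 781, 834 and 261 in the gd12 pools, and its call was lost in 3 fits. Of the 18 ovary and pre-granulosa genes, 0 rose and 2 fell, Irx3 (-2.52 ± 0.58) and Lgr5, an R-spondin receptor gene (-0.80 ± 0.25). Without pool 14, the highest in Irx3, the difference of Irx3 was -1.82, and the call of Lgr5 was lost in 4 of the 6 fits with an array left out. With pool 15 alone, 1 gene of the ovary list rose and 0 fell. Of the 17 adrenal cortex and chromaffin genes, Cyp11b1 and Mrap rose and Chgb fell. The call of Cyp11b1 was lost in 4 of the 6 fits (lowest difference 1.51, without pool 14), and that of Chgb in 3, with a difference of -1.61 without pool 13. Of the 7 renin-angiotensin genes Agt rose and Agtr2 fell.

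Markers of other cells that a dissection can carry were called in both directions, in shares to be read against 11.4% of all genes higher and 7.34% lower. Of 21 mesonephros and duct genes, 2 rose and 3 fell, and their sum was 6909, 7042 and 6619 in gd14 testes, against 10039, 10418 and 8044 in the gd12 pools. Cdh16 was at least 6.37-fold lower in gd14 testes, a call lost without pool 13 (adjusted p = 0.0659). Calb1, a calcium-binding protein of the duct, fell by 2.88 on the log2 scale and was the only fall of the list that kept the call with any array left out. Of the 2 rises, 1 kept the call in this way. Neural and glial genes summed to 4184, 4496 and 4491 in gd14 testes, against 9258, 6447 and 4293 in the gd12 pools. Of those 20, 3 fell, among them Nefm at 117, 103 and 94.3 in gd14 testes, against 1555, 1073 and 202 in the gd12 pools. Each of the 3 lost its call without pool 13 and without pool 14. Of the 14 erythroid genes, 2 fell, and 1 of them kept the call with any array left out. The embryonic globin Hbb-bh1, whose probes may match other beta-like globins, read 575, 727 and 1592 in gd14 testes, against 4722, 13825 and 6182 in the gd12 pools (-3.05 ± 0.41, adjusted p = 4.87e-05). Macrophage and leukocyte genes summed to 4271, 3610 and 4894 in gd14 testes and 7044, 5413 and 3944 in the gd12 pools, with 2 of 26 higher and 1 lower. No call of the macrophage list held with any array left out. Of the 17 striated muscle genes 1 rose and 1 fell, and of the 10 liver genes 1 rose and 1 fell. With any array left out, the muscle fall and the liver rise kept the call, and the muscle rise and the liver fall did not. Liver genes summed to 2321, 1253 and 1557 in gd14 testes, against 778, 947 and 521 in the gd12 pools. The liver marker Alb was near background in all but 2 of the 6 arrays. For Afp, another liver marker, the brightest probe set was not called (2.04 ± 0.77). Another probe set of Afp was called higher (1.7 ± 0.5, adjusted p = 0.0261 over all probe sets).

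Stress and detoxification genes included some of the most separated genes. Of 27 glutathione and detoxification genes, 7 rose and 2 fell, and 4 rises and 2 falls kept the call with any array left out. Without pool 13, 5 rose, and without pool 14, 5 rose. The median difference of the list was 0.25 over all pools and 0.03 with pool 15 alone. Ephx1, microsomal epoxide hydrolase, read 1718, 1943 and 1772 in gd14 testes, against 166, 136 and 176 in the gd12 pools, with the lowest adjusted p of the genes named here (3.34 ± 0.17, adjusted p = 7.43e-10). Gsta2, a glutathione transferase whose close paralogs share sequence, read 1117, 1461 and 1080 in gd14 testes, against 129, 44.7 and 65.7 in the gd12 pools (3.68 ± 0.37). The thioredoxin genes Txn1 and Txnrd1 fell by 0.46 and 0.70 on the log2 scale, while the middle probe set of Txn1 gave 0.07. Of 23 immediate early and stress genes, 5 rose and 1 fell, and 4 rises and 1 fall kept the call with any array left out. Hspb1, a small heat shock protein gene, read 3941, 4748 and 4804 in gd14 testes, against 1767, 1418 and 1496 in the gd12 pools (1.51 ± 0.18, adjusted p = 1.03e-05). Hspa1a and Hspa1b, near-identical genes that an array cannot part with certainty, rose by 2.22 ± 0.41 and 2.38 ± 0.25. Immediate early genes, which respond to handling, differed among themselves. Ier3 rose by 0.96 ± 0.20 and Myc fell by 0.92 on the log2 scale, both in each fit with an array left out, while Fos and Egr1 were not called (-0.26 ± 0.23 and 0.45 ± 0.26). Rrad, a small GTPase gene outside the lists, read 915, 1023 and 862 in gd14 testes and was near background in every gd12 pool, at least 13-fold higher (adjusted p = 1.15e-06).

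**Figure D5:**
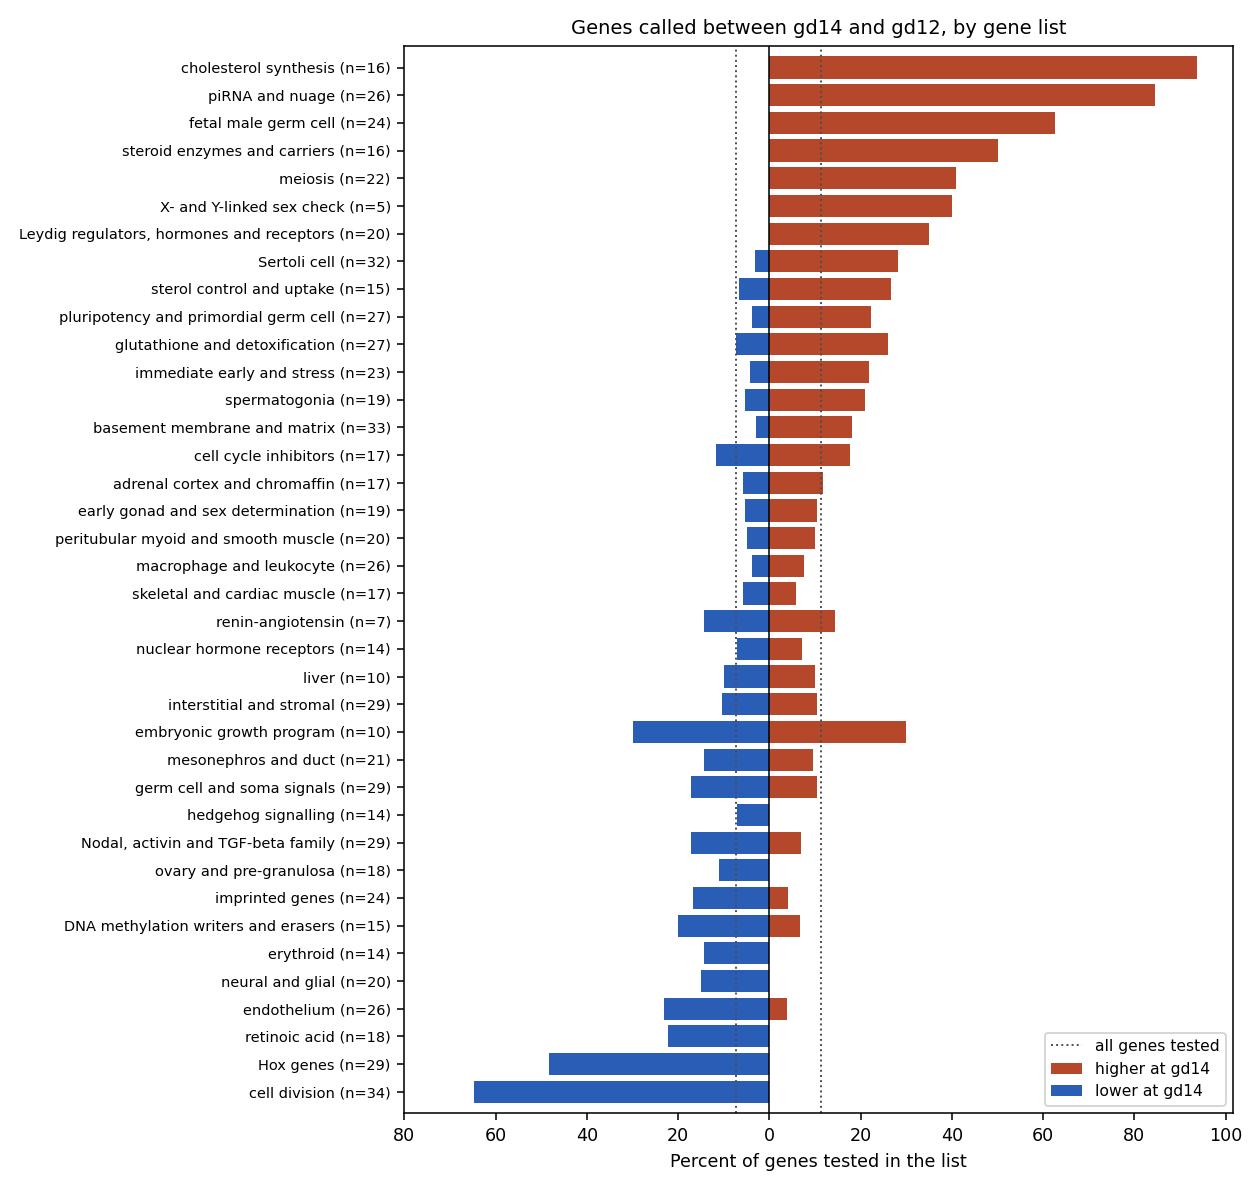
Percent of the genes tested in each of 38 lists that were called higher (red, to the right) or lower (blue, to the left) at gd14 relative to gd12, with the number tested beside each name. Dotted lines mark the shares of all genes, 11.4% higher and 7.34% lower, and cholesterol synthesis and the piRNA list stand at one end, with Hox and cell division genes at the other.

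Calls were also counted by chromosome. Of 489 X-linked genes tested, 58 (11.9%) rose, close to the 11.4% of all genes, but 36 (7.36%) rose at least 2-fold, against 4.09% of all genes. In rises of that size the other chromosomes with at least 300 genes tested ranged from 2.54% for chromosome 11 to 5.66% for chromosome 19. Falls were also frequent on the X. There 47 genes (9.61%) fell, against 7.34% of all genes, and 13 (2.66%) fell at least 2-fold, against 1.48%. In falls of that size the same other chromosomes ranged from 0.672% for chromosome 5 to 2.38% for chromosome 6. These shares are descriptions without a test, since genes of a chromosome are not independent samples. Among the X-linked genes named above are Nxf2, Taf7l and Tktl1, which rose, and Rhox6 and Rhox9, which fell.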

How the data were processed

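Total RNA of whole testes was the starting material, the label was biotin, and each sample was hybridised to 1 oligonucleotide array. The deposited intensity values were made by the authors with GCOS, per the submitters' processing notes, with the version and settings not given in the sources used here. Of 45101 probe sets, 34945 had 1 gene in the platform annotation, 932 several and 9160 none. The brightest probe set stood for each gene. Genes were kept when 3 or more of the 20 testis arrays held them above their own 40th percentile. Values were taken as log2(intensity + 22.4), the offset being their 20th percentile, and fitted in limma 3.58.1 (R 4.3.3) with 6 stage means and an intensity trend, which left 14 residual degrees of freedom. The 6 stages share 1 spread. The script was tested on simulated data. Alternatives changed the samples fitted, offset, filter, scaling, probe set, trend and weights, or left out each array. The number of arrays limits the precision. The 38 gene lists and the members were chosen with earlier results of these data known. Genes named were the 15 highest and 15 lowest without overlap, and in each list the first 3 tested and up to 8 called. Markers were named too. Outside this rule, chosen after their values were seen, were Aurka, Bub1, Bub1b, Cdc20, Cpeb1, Cyb5a, Dmc1, Egr1, Elavl2, Fgf9, Fst, Gdf3, Gtsf1l, Henmt1, Hsd17b11, Hsd17b12, Mcm4, Mcm7, Mybl1, Mybl2, Pld6, Plk1, Pnldc1, Prdm14, Sohlh2, Sox2, Spo11, Sqle, Stard3, Syce2, Tdrd12, Tdrd3, Tdrkh, Tfap2c, Tspo and Xist.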

Additional observations from a re-analysis of the deposited data

How the results depend on the processing

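No paired analysis was possible because the stages share no replicate number in the labels. Of 356 genes set by the naming rule 202 were called, and 108 of these kept the call in every planned setting. With pools 13 and 14 left out, chosen after the data were seen, 943 genes were called, 630 higher and 313 lower, and 5 Sertoli genes rose, 13 cell division genes fell and 0 Hox genes fell. With each array left out in turn, the calls ranged from 1780 to 2158, the falls from 640 (without gd14 array 10) to 815, the cell division falls from 13 (without pool 15) to 24 and the Hox falls from 7 (without pool 13) to 14. Fewer arrays entered each of these fits. The middle probe set of each gene in place of the brightest gave 14 falls in cell division and 9 in the Hox list. It also turned the sign of Fads1 (-0.03), Grb10 (0.29), Mbd1 (0.15), Mycn (0.12), Ret (-0.11), Scap (-0.04) and Txn1 (0.07), none of them then called. Prrx1 turned to 0.35 with pools 13 and 14 left out (adjusted p = 0.496). The causes were not tested.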

Other observations

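A gene's probe sets did not always move together. Of the 2681 called genes, 1483 had another probe set past the filter, and in 608 of them another was called the same way. In 20 genes, among them the trafficking genes Rab10 and Vapb, another probe set was called the opposite way, and every other probe set had the same sign in 1096.

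Single arrays stood out to different degrees. Pool 13 lay at least 2-fold above all 5 other arrays in 71 genes, pool 14 in 21 and pool 15 in 10, while gd14 arrays 10, 11 and 12 did so in 12, 7 and 10.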
